A study of Rattus norvegicus with 24 samples.

Results

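Nppa, Nppb and Ankrd1 are 3 genes that the heart is known to express more strongly when its muscle is stretched, and their scores were followed here over every group of a rat study of right ventricular overload. The members were the probes whose gene symbol was Nppa, Nppb or Ankrd1 in the annotation of the array. The array measured 3 of 3 members among 4126 named genes, with 1 probe for each (probe 2457 for Nppa, probe 2092 for Nppb and probe 2948 for Ankrd1). The study hybridised RNA from rat ventricles on 24 arrays of 2 colours, each against a common reference pool. The samples were labelled CON, HYP or CHF at day 14, with 6 right ventricle and 2 left ventricle arrays for each label. The series title names compensated and decompensated hypertrophy after monocrotaline, so HYP was read as compensated hypertrophy, CHF as heart failure and CON as the control. Monocrotaline, an alkaloid of Crotalaria plants, damages lung vessels, which raises the pressure the right ventricle pumps against. No source used here gives strain, sex, age, dose, what the controls received or whether each array stands for 1 animal. The p-values below therefore measure the spread between these samples, which may in part be technical.

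Nppa encodes atrial natriuretic peptide and Nppb encodes B-type natriuretic peptide, hormones that heart muscle cells release under stretch and that act on the kidney and on vessels through a guanylyl cyclase receptor. In the adult heart Nppa is mainly made in the atria, and its return in the ventricle is a classical sign of overload. Ankrd1 encodes cardiac ankyrin repeat protein, which binds the N2A part of titin in the sarcomere and is also found in the nucleus. In rats Nppb and Nppa lie next to each other on chromosome 5, with 0 annotated RefSeq genes between them, while Ankrd1 lies on chromosome 1.

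The promoters of the neighbouring peptide genes are shown because both are controlled by cardiac factors whose short binding motifs can be looked for. The RefSeq promoter table for GRCr8 held 2 of the 3 genes, and Ankrd1 was not among its entries. The 250 bases before the gene start are given 5′ to 3′, for Nppa from chr5:163711934-163712183 and for Nppb from chr5:163699758-163700007, both on the plus strand. Capitals mark every match, on either strand, to 7 motifs. GATA was searched for GATA factors, CATTCC for TEAD factors, AAGTG for Nkx2-5, TATAAA for the TATA box and TGANTCA for AP-1, beside the CArG and MEF2 boxes.
Nppa: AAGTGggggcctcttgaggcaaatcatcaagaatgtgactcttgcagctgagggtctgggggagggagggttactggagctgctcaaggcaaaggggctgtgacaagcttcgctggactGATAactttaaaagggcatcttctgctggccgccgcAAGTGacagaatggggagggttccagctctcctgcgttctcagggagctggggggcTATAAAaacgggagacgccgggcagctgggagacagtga
Nppb: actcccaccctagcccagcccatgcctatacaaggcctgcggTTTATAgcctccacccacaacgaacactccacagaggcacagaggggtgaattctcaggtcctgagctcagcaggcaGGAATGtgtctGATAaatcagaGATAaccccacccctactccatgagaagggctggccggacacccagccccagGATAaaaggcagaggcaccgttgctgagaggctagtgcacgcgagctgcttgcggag
The Nppa window held 1 GATA-factor match, 2 Nkx2-5 matches and 1 TATA box, the last starting 39 bases before the gene start. The Nppb window held 3 GATA-factor matches, 1 TEAD match on the minus strand and 1 TATA box match, also on the minus strand. The AP-1 motif and the CArG and MEF2 boxes had 0 matches in both windows. Short motifs are common: the GATA-factor motif was found in 55.9% of 33469 promoter windows of the same length, the Nkx2-5 motif in 40.6%, the TATA box in 12.9%, the TEAD motif in 12.1%, the AP-1 motif in 6.34%, the MEF2 box in 2.96% and the CArG box in 1.5%. These matches describe the sequence and were not related to the scores.

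The deposited value is a score per probe and array with a mean near 0 and an SD near 1 on each array, read as a ratio against the pool that was standardised within the array. Scores were centred on each array's median, and a difference is given in array SDs, which is not a log2 fold change. A score places a sample against the pool, so it says nothing of how strongly one gene is expressed relative to another. Arrays held 2162 to 3658 values. The direction of the ratio is not settled: 13 pairs of arrays correlated below -0.3, the lowest at -0.530, and no source used here names the dyes. Each comparison was therefore also made with the sign turned on 5 arrays, which are CHF right ventricle 10 and 14, CHF left ventricle 09 and CON left ventricle 21 and 22. Acta1, the skeletal alpha-actin that overloaded ventricles re-express, was higher in CHF than in CON by 4.35 ± 0.573 (SE, n = 6 and 6, limma adjusted p = 0.000157). With the sign turned its mean was still higher (3.31, limma adjusted p = 0.0849). As deposited, its centred scores ran from 1.08 to 2.71 on the 6 CHF right ventricle arrays and from -4.13 to -0.947 on CON. Turning the sign thus puts CHF 10 and 14 below 0 for Acta1. Which sign is right was not tested. Ankrd1 had itself been used to judge the direction in earlier work on these data, so its sign is not separate support for it.

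Ankrd1 had a value on all 24 arrays, Nppa on 18 and Nppb on 16. On the right ventricle, Nppa was measured on 5 of 6 CON, 4 of 6 HYP and 3 of 6 CHF arrays. Nppb was measured on 4 of 6 CON, 4 of 6 HYP and 3 of 6 CHF arrays. The share of arrays with a value did not differ detectably between conditions for either gene (Fisher's exact test, two-sided, p from 0.545 to 1 in 6 tests, all 1 after Benjamini-Hochberg adjustment). Of the 18 right ventricle arrays, 5 lacked both peptides and 8 lacked at least 1 of them. The 6 arrays without Nppa held 2162 to 3236 values in all (median 2856.5), against 2584 to 3658 (median 3381) on the 12 with it. What makes a value missing was not tested. Values on at most 12 right ventricle arrays were common, and 40.7% of all features had no more than that.

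**Figure D1:**
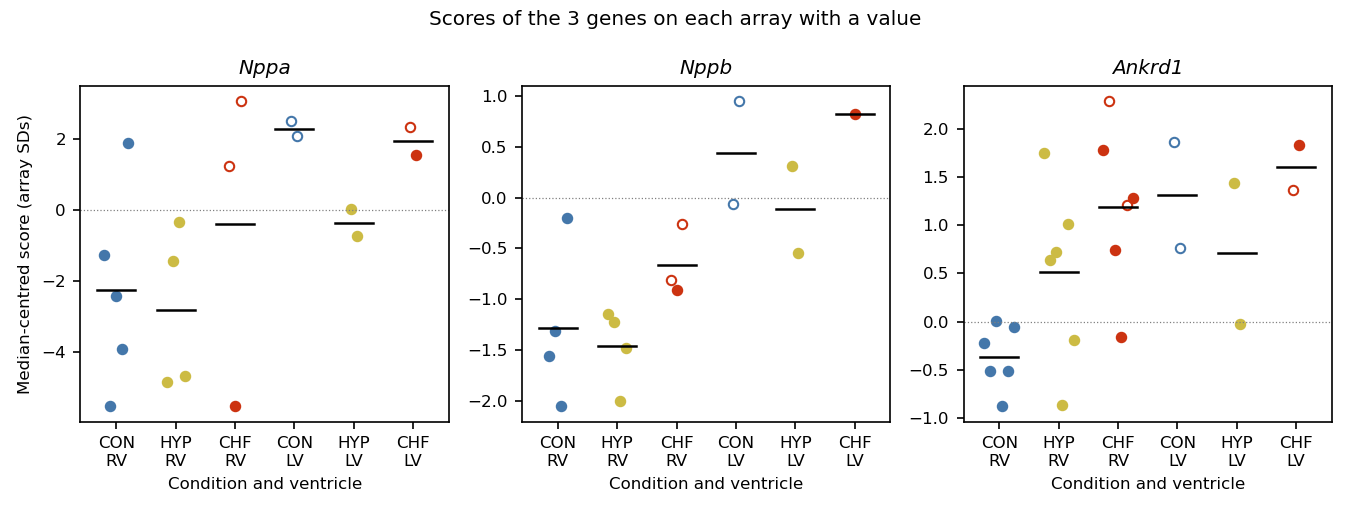
Median-centred scores (array SDs) of Nppa, Nppb and Ankrd1 on every array with a value, by condition and ventricle. Each point is 1 array, open points are the 5 arrays on which the sign was turned in the alternative, and bars are group means. Nppa spreads from -5.54 to 3.08 on the right ventricle, while 5 of 6 CHF right ventricle arrays lie above every CON right ventricle array for Ankrd1 (3 of 6 with the sign turned).

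The Ankrd1 comparison asked whether this titin-bound stretch gene differs in the failing right ventricle. It had the highest mean in CHF, a middle one in HYP and the lowest in CON, and no step of that order passed the test across all features. On the CON right ventricle the score ran from -0.884 to 0.0035, with a median of -0.368. On HYP it ran from -0.868 to 1.76 with a median of 0.681, and on CHF from -0.157 to 2.29 with a median of 1.25. Of the CHF arrays, 5 of 6 were above the highest CON array, and CHF 12 was the one within the CON range. That place depended on the centring. In the deposited scores CHF 12 was at 0.06, above the highest CON array (CON 19, -0.078). CHF 12 had the highest array median (0.217) and the fewest values (2162). Without centring the CHF minus CON difference was 1.60 and did not pass (limma adjusted p = 0.0686). The number fell to 3 of 6 with the sign turned. Of the HYP arrays, 4 of 6 were above the highest CON array, and in the deposited scores HYP 08 (-0.037) was above it too.

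The mean of Ankrd1 was 1.19 ± 0.848 in CHF and -0.366 ± 0.336 in CON (SD, n = 6 each). The difference was 1.56 ± 0.418 (SE), with a 95% interval of 0.685 to 2.44, and limma gave an adjusted p of 0.112. It ranked 41 by p among 3199 features, of which 29 passed (0.907%). The exact permutation test on Ankrd1 alone, two-sided, gave p = 0.00649, where the smallest possible is 0.00216. Of 18 fits that each left out 1 array, 1 passed, the fit without CHF 12 (1.83, limma adjusted p = 0.0322). The highest limma adjusted p among them was 0.332. Without both CHF 10 and 14 the difference was 1.28 (limma adjusted p = 0.433). Once the sign was turned, which moves CHF 10 and 14, the difference fell to 0.390 (adjusted p = 0.766; exact permutation p = 0.561). The CHF excess of Ankrd1 thus depended in size on those 2 arrays' direction.

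Between HYP and CON, Ankrd1 differed by 0.878 ± 0.418 (limma adjusted p = 0.9997; exact permutation p = 0.0541), a comparison in which 0.281% of 3199 features passed. The 2 arrays of doubtful direction do not enter these means. Between CHF and HYP it differed by 0.682 ± 0.418 (adjusted p = 0.940; exact permutation p = 0.206), and by -0.488 with the sign turned. In that comparison 0% of 3199 features passed limma's adjusted p, while 158 had an unadjusted p under 0.05. The mean of CHF and HYP was above CON by 1.22 ± 0.362 (adjusted p = 0.252), against a background of 0.625% of features called. So CHF, HYP and CON did not separate from their neighbours in that order beyond the spread of the arrays.

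Nppa was the more variable peptide gene, and each pair of its right ventricle groups overlapped. Its score was -1.27, -5.54, -2.41, -3.92 and 1.91 on CON arrays 17, 18, 19, 20 and 22. It was -4.85, -1.42, -0.336 and -4.68 on HYP arrays 03, 04, 06 and 08. It was 1.24, -5.52 and 3.08 on CHF arrays 10, 11 and 14. Both positive CHF values came from arrays of doubtful direction, and the lowest CHF value was as low as the lowest CON value.

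Nppa differed by 1.85 ± 1.94 between CHF and CON (limma adjusted p = 0.822; exact permutation p = 0.500, n = 3 and 5), with a 95% interval of -2.35 to 6.04. It differed by -0.575 ± 1.78 between HYP and CON (adjusted p = 0.9997; exact permutation p = 0.794) and by 2.42 ± 2.03 between CHF and HYP (adjusted p = 0.956; exact permutation p = 0.400). In the sign-turned scores, CHF was below CON by 1.03 and below HYP by 0.457, as means of -3.28, -2.25 and -2.82. Without CHF 11 alone, the difference was 4.41 from CON and 4.98 from HYP (limma adjusted p = 0.313 and 0.460). No direction for Nppa in the overloaded right ventricle could be drawn at this spread. Its within-group SD of 3.14 was the second largest of 3199 features, whose median SD was 0.662. In the sign-turned scores it was 2.51 and ranked 8, and without CHF 11 it was 2.48. The SD of Nppb was exceeded by 65.0% of features and that of Ankrd1 by 39.0%.

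**Figure D2:**
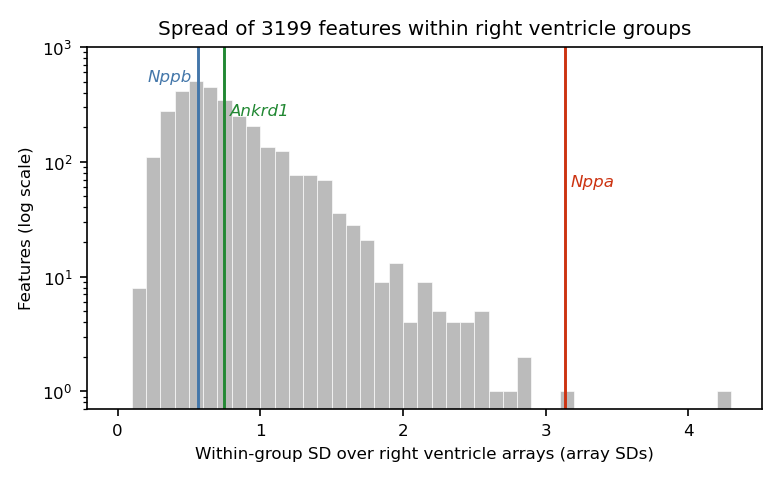
Histogram of the within-group SD over the right ventricle arrays (array SDs) for 3199 features, with the number of features on a log scale. Lines mark the 3 genes: Nppb and Ankrd1 lie in the bulk, and Nppa at 3.14 lies in the far tail (2.51 with the sign turned).

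With the deposited signs, the Nppa scores moved with a pattern shared by the arrays. The first component of the deviations from group means, computed over 1655 features without the 3 genes, held 43.3% of that variance on the right ventricle. Its highest arrays were CHF 14 (1.90) and CHF 10 (1.62), both of doubtful direction, and it was not computed with the sign turned. Over 12 arrays Nppa correlated with it at r = 0.807 and rho = 0.762, and at r = 0.791 after group means were removed. Ankrd1 had r = 0.310 over 18 arrays and Nppb had r = 0.270 over 11. These are descriptions over points that share the arrays, with no test of the correlation. With the component as a covariate, Nppa differed by 0.418 ± 1.29 between CHF and CON and its within-group SD was 2.04. The 8 markers of ventricular muscle cells with values on all arrays summed to -8.89 to 9.07 in CON, -7.62 to 9.29 in HYP and -20.8 to 10.1 in CHF, so they also varied widely within a condition.

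**Figure D3:**
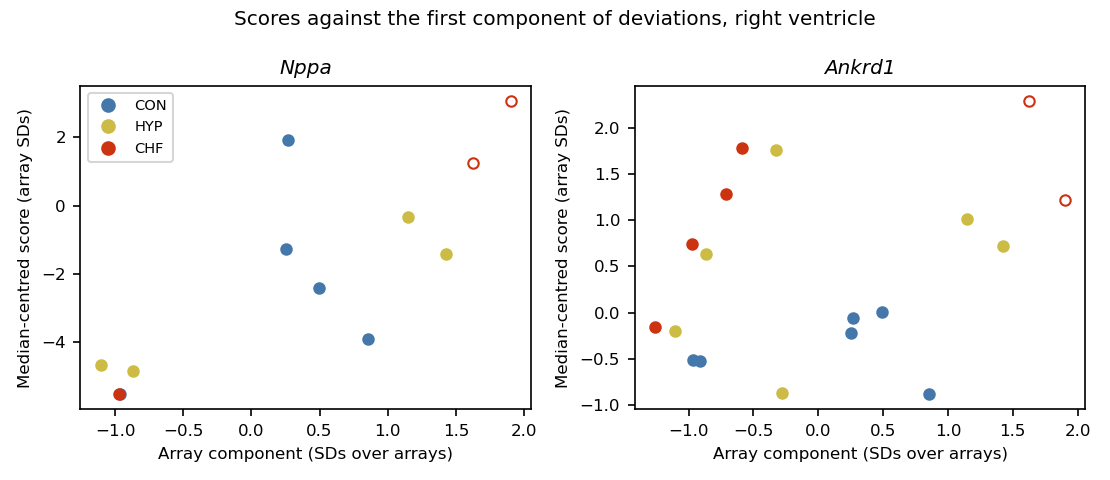
Median-centred scores (array SDs) of Nppa and Ankrd1 on right ventricle arrays against the first component of deviations from group means (SDs over arrays). Points are arrays coloured by condition, and open points are CHF 10 and 14. With the deposited signs, Nppa rises along the component (r = 0.807), while Ankrd1 does so less (r = 0.310). CHF 11 and CON 18 coincide at the lower left for Nppa.

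Nppb varied less, and it was below 0 on each of the 11 right ventricle arrays with a value, 2 of which, CHF 10 and 14, go above 0 with the sign turned. Its score was -1.56, -1.31, -2.06 and -0.2 on CON arrays 17, 18, 19 and 20. It was -1.15, -1.23, -2.01 and -1.48 on HYP arrays 01, 04, 06 and 08, and -0.808, -0.908 and -0.264 on CHF arrays 10, 11 and 14. The 3 CHF values were above all 4 HYP values, while CON overlapped both. Nppb differed by 0.806 ± 0.442 between CHF and HYP (limma adjusted p = 0.938), and the exact permutation p of 0.0571 is the smallest that 3 against 4 arrays allow. Among the 71 features with the same numbers of values, 14.1% had CHF and HYP groups that did not overlap, so this separation is not unusual here. Turning the sign made the difference 1.52 and the groups still did not overlap.

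Nppb in CHF differed from CON by 0.621 ± 0.442 (limma adjusted p = 0.734; exact permutation p = 0.286), and by 1.34 with the sign turned (adjusted p = 0.414). HYP differed from CON by -0.186 ± 0.409 (adjusted p = 0.9997; exact permutation p = 0.800). Neither passed the test. With all arrays, the deposited signs and no covariate, 0 of the 3 members were called in any right ventricle comparison. So few features passed there (0% to 0.907% of 3199) that this count says little about the members. Ankrd1 did pass between CHF and CON with the array component as a covariate (limma adjusted p = 0.0481) and without CHF 12 (limma adjusted p = 0.0322).

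**Figure D4:**
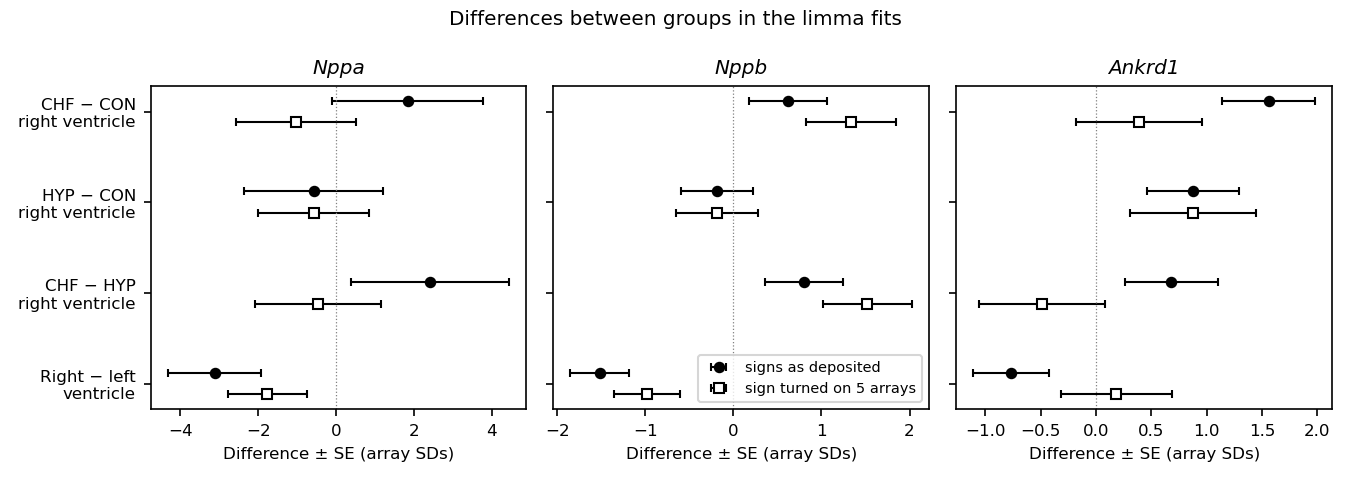
Differences between groups with their SE (array SDs) for the 3 genes, in 3 right ventricle comparisons and between ventricles. Filled circles keep the deposited signs and open squares have the sign turned on 5 arrays. Nppb keeps its direction in all 4 comparisons, but HYP minus CON holds none of the turned arrays, so there it could not change. Ankrd1 between ventricles goes from -0.766 to 0.182.

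Setting the right ventricle against the left asked whether the genes differ between the chambers, over the mean of the 3 conditions. CON is among these conditions, so the comparison does not set a loaded chamber against an unloaded one. All 3 genes had lower mean scores in the right ventricle, and Nppb passed when tested with a lower minimum number of arrays. The left ventricle values of Nppb were -0.060 and 0.950 in CON (arrays 21 and 22), 0.313 and -0.541 in HYP (03 and 05) and 0.820 on the only CHF array with a value (15). Within each condition every right ventricle value lay below every left ventricle value. Such a separation held for 18 of 3049 features (0.59%) with a value in every group. Those features were not matched to Nppb in their numbers of values, and only this direction was counted. The share therefore does not show how unusual Nppb is. In the sign-turned scores the separation of Nppb held in HYP and CHF but not in CON. There the right ventricle reached -0.2 and the left ventricle values were 0.06 and -0.95. Over the conditions together the ranges overlapped, since the highest right ventricle value was -0.2.

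The planned fit needed 2 arrays in each group and so left Nppb out. With 1 array enough, a minimum chosen after the values were seen, Nppb was lower in the right ventricle by -1.52 ± 0.330 (SE, 95% interval -2.23 to -0.810; limma adjusted p = 0.0130), where 14% of 3048 features passed. The exact permutation of ventricle labels within condition gave p = 0.00111, the smallest that its 900 assignments allow. The difference was -1.73 in CON, -1.35 in HYP and -1.48 in CHF. In the sign-turned scores it was -0.984 and no longer passed (adjusted p = 0.384; exact permutation p = 0.0289). The CHF part rests on a single left ventricle array.

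Nppa in the left ventricle was 2.51 and 2.09 in CON, 0.028 and -0.740 in HYP, and 2.34 and 1.56 in CHF (arrays 09 and 15). Its right ventricle mean was lower by -3.12 ± 1.21 (limma adjusted p = 0.0791; exact permutation within condition p = 0.0324), a comparison in which 18.3% of 2494 features passed, and 0 of them with the sign turned (299 at an unadjusted p under 0.05 by limma). It passed without CHF right ventricle 14 (-3.70, adjusted p = 0.0298) and without CON right ventricle 22 (-3.47, adjusted p = 0.0420). With the sign turned it was -1.77 (adjusted p = 0.451; exact permutation p = 0.146), and the CON part went from -4.55 to 0.0532. Ankrd1 differed by -0.766 ± 0.341 (adjusted p = 0.110; exact permutation p = 0.0517) and by 0.182 with the sign turned, so its direction between ventricles is open to the sign of the arrays.

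Other values differed between the chambers too. The scores of 3 left ventricle arrays, CHF 15 and CON 21 and 22, carry 2 decimals and all others 3, and these 3 arrays gave 3 of the 5 left ventricle values of Nppb. In HYP, where both ventricles have 3 decimals, Nppb ranged from -2.01 to -1.15 on the right and from -0.541 to 0.313 on the left. The marker counts that follow stand beside 18.3% of 2494 features called between ventricles. Of 3 erythrocyte markers tested, 3 were lower in the right ventricle (Hba-a1, Hbb and Alas2), with a median difference of -5.89. In the sign-turned scores none of the 3 was called, all 3 still being below 0, with a median of -1.51. Hbb and Hba-a1 together ranged from -15.6 to -1.97 on right ventricle arrays and from -15.4 to 11.1 on left ventricle arrays. Of 5 atrial markers tested, 1 was higher (Dkk3) and 1 lower (Pam), with a median of -0.274. Of 9 ventricular muscle markers, 2 were lower (Ckm and Myl3) and 0 higher, with a median of -0.872, and 8 of the 9 lay below 0, as the members did. Turning the sign left no atrial or ventricular marker called, with medians of -0.254 and -0.377. Their part in the results was not tested.

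Within the left ventricle the values were few. Ankrd1 was 1.87 and 0.770 in CON, 1.44 and -0.022 in HYP, and 1.37 and 1.84 in CHF, so the groups overlapped. It differed by 0.287 ± 0.724 between CHF and CON, by -0.610 ± 0.724 between HYP and CON and by 0.897 ± 0.724 between CHF and HYP. Nppa differed by -2.66 ± 2.39 between HYP and CON (limma adjusted p = 0.996), and by 1.94 in the other direction with the sign turned. In these 3 comparisons 0% of 2494 features passed limma's adjusted p, while 22, 46 and 75 had an unadjusted p under 0.05 for CHF against CON, HYP against CON and CHF against HYP. In the sign-turned scores 96 features passed for HYP against CON and 0 for the other two (178 and 88 at an unadjusted p under 0.05 by limma, for CHF against CON and CHF against HYP). The interaction of condition and ventricle was also tested, with 0% of 2494 features called for CHF and 0% for HYP and 68 and 62 at an unadjusted p under 0.05 by limma. With the sign turned, 9 and 33 were called. For Ankrd1 the CHF effect was larger on the right by 1.27 ± 0.836 (adjusted p = 1) and the HYP effect by 1.49 ± 0.836 (adjusted p = 0.9997), so an effect limited to the right ventricle was not shown.

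With the deposited signs, the 3 genes did not rise and fall together in a way that passed a test. Over the right ventricle arrays, Nppa and Ankrd1 correlated at r = 0.510 and rho = 0.476 (n = 12, permutation p = 0.0897 and 0.123, adjusted over 3 pairs 0.269 and 0.370). Without the 2 arrays farthest from the Nppa median, r was 0.618 (n = 10), and with the sign turned it was -0.0286. Nppa and Nppb had r = 0.177 and rho = 0.103 (n = 10, permutation p = 0.623 and 0.785, adjusted 0.739 and 0.785), and r = -0.235 without the 2 farthest arrays. Nppb and Ankrd1 had r = 0.113 and rho = 0.2 (n = 11, permutation p = 0.739 and 0.557, adjusted 0.739 and 0.785), and r = 0.484 without the 2 farthest arrays. With the sign turned this pair went in opposite directions, at r = -0.710, which passed (permutation p = 0.0140, adjusted 0.0419). Its rho of -0.5 did not (permutation p = 0.120, adjusted 0.360). Within conditions, as deviations from the group means, r was 0.625, -0.0182 and -0.243 in the same order of pairs. The first of these had a permutation p of 0.0308, adjusted 0.0924.

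Over all genes compared, the median r was -0.102 with Nppa, -0.0716 with Nppb and -0.0897 with Ankrd1. Picking the highest r from many genes over few arrays gives high values by selection. How high they would be without any link was not tested. The genes picked in this way are named only as a description over the arrays where each member has a value. For Nppa these were Nfyc, a subunit of the CCAAT-binding factor (r = 0.968), the proteoglycan Sdc2 (r = 0.967) and the scaffold protein gene Pick1 (r = 0.952), the highest of 1834 genes over 12 arrays (0.952, 0.942 and 0.918 with the sign turned). For Nppb they were the sheddase gene Adam17 (r = 0.891), the calcium channel gene Trpv6 (r = 0.880) and the BMP antagonist gene Chrd (r = 0.827), of 1942 genes over 11 arrays. Their order was not kept with the sign turned, at 0.594, 0.823 and 0.923. For Ankrd1 they were Prb1 (r = 0.865), Pvalb, a calcium buffer of fast muscle (r = 0.823), and Fgb, the fibrinogen beta chain (r = 0.808), of 1481 genes over 18 arrays, and these became 0.755, 0.858 and 0.685 with the sign turned. Ankrd1 correlated with Acta1 at r = 0.730 and rho = 0.796 over the 18 arrays, and at r = 0.398 after group means were removed. In the same order, Nppb had 0.424, 0.545 and 0.689 over 11 arrays, and Nppa had 0.229, 0.196 and 0.234 over 12. These correlations with Acta1 were not computed with the sign turned.

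The genes that process, receive and clear natriuretic peptides were not called in any right ventricle comparison. Between ventricles, 2 of 8 tested were higher on the right and 1 was lower, where 18.3% of 2494 features passed. With the sign turned 0 were called there. Of 11 tested between CHF and CON right ventricles, 0 passed, and 7 differences were above 0, with a median of 0.248 against -0.0992 over all features. The smallest p belonged to Chga, a granule protein of secretory cells (0.843 ± 0.256, limma adjusted p = 0.201). Pde5a, which degrades cyclic GMP, was at 1.30 ± 0.514 (adjusted p = 0.477), and Nppc, the C-type peptide, at -0.526 ± 0.339 (adjusted p = 0.699). None of the 11 tested transcription factors linked to the members' promoters passed either, with a median of 0.0295. Among these, Gata6 was at -1.39 ± 0.595 (adjusted p = 0.525), Hand2 at 1.51 ± 0.772 (adjusted p = 0.639) and Smad3 at 0.183 ± 0.219 (adjusted p = 0.850).

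Among the titin, I-band and Z-disc partners of Ankrd1, Capn3 rose in the right ventricle. The other 8 tested were not called there, and the list median was -0.287 between CHF and CON. Between ventricles, 2 of 8 tested were higher on the right and 4 were lower, where 18.3% of 2494 features passed. With the sign turned 0 were called between ventricles. Capn3 encodes the muscle protease calpain 3, which binds titin at N2A beside Ankrd1. Its score ran from -1.98 to -1.12 in CON (median -1.57), from -0.792 to 1.10 in HYP (median 0.228) and from 0.500 to 1.32 in CHF (median 0.699). All HYP and CHF arrays were thus above all CON arrays, but Capn3 is named because it passed on these same arrays. The share of all features separated in this way was not computed. Over all features, 0.907% were called between CHF and CON and 0.281% between HYP and CON. Capn3 was higher than CON by 2.31 ± 0.294 in CHF (limma adjusted p = 0.000149) and by 1.74 ± 0.294 in HYP (adjusted p = 0.0121). After turning the sign, the CHF difference still passed (1.86, adjusted p = 0.0318), while the HYP difference did not (1.74, adjusted p = 0.136). Titin itself, Ttn, was at 0.732 ± 0.375 (adjusted p = 0.610) in CHF and Pdlim3, a Z-disc protein gene, at -0.639 ± 0.324 (adjusted p = 0.602).

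Of 27 other stretch and hypertrophy genes tested, 2 rose in CHF and 0 fell, with a list median of -0.146, beside 0.907% called over all features (28 higher and 1 lower). These were Acta1, described above, and Acta2, the smooth muscle actin (1.58 ± 0.252, limma adjusted p = 0.00132). Acta2 is the mean of 3 probes that disagreed, at 4.14, 0.417 and 0.188. Neither passed with the sign turned (3.31 and 1.25, adjusted p = 0.0849 for both). Tnc, the matrix protein tenascin C, was at -0.567 ± 0.276 (adjusted p = 0.593). In HYP, Acta1 was higher than CON by 3.11 ± 0.573 (adjusted p = 0.0174), which no longer passed without HYP 01, 04 or 06 or CON 17, 18, 19 or 22, each left out by itself (2.75 to 3.17, adjusted p from 0.0519 to 0.0666).

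Markers of other cells stood as follows between CHF and CON right ventricles. None of 6 atrial markers passed (median -0.344), nor of 10 ventricular (median -0.364), 6 fibroblast (median -0.621), 3 leukocyte (median 0.198) or 3 erythrocyte markers (median 1.38). Of 6 smooth muscle markers, 1 was higher, which is Acta2, and of 2 endothelial markers 1 was higher, which is Cav1. With the sign turned both endothelial markers were below 0 (median -2.13) and no marker was called. The other medians moved too, to -0.384 for atrial, -1.05 for ventricular, -0.641 for fibroblast, -0.431 for leukocyte and 3.74 for erythrocyte markers. All 10 ventricular markers were then below 0. The 3 atrial markers with values on all arrays, Myl4, Pam and Dkk3, summed to -1.09 to 1.37 in CON, -1.24 to 0.441 in HYP and -2.05 to 0.411 in CHF. In whole tissue, a change in the cells present and a change of RNA within cells cannot be told apart.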

How the data were processed

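The study profiled rat ventricles on 2-colour arrays against a reference pool. The authors deposited 1 score per probe and array; no source used here gives its scale, scanner, background correction, normalization, dyes or genome build. The planned design assumed log ratios; limma was applied to the scores instead. Of 4803 probes, 4278 had 1 symbol, 4 several and 521 none; 4257 Entrez identifiers matched RefSeq (GRCr8), changing 0 symbols. Probes of a gene were averaged, giving 4651 features.

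Array medians ran from -0.2 to 0.217, so each array was centred. limma 3.58.1 (R 4.3.3) was fitted on the 18 right ventricle arrays or on all 24, with at least 2 arrays with a value per group and Benjamini-Hochberg adjustment over all features tested (threshold 0.05). Single values had exact two-sided permutation tests (scipy 1.17.1), and correlations 100000 permutations. The fits were tested on simulated data. Alternatives were deposited scores, sign turned, other minimum numbers of arrays, array weights, the array component, the replicate number and leaving out arrays. Genes outside the members were named if they passed in a right ventricle comparison or had 1 of the 3 smallest p in CHF against CON in their list, or 1 of the 3 highest correlations with a member. Members and lists were chosen with earlier results of these data known. The number of arrays limits the precision.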

Additional observations from a re-analysis of the deposited data

How the results depend on the processing

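With the sign turned, Nppa was reversed at -1.03 (CHF minus CON), -0.457 (CHF minus HYP) and -0.803 (mean of both minus CON) in the right ventricle, at 1.91, 1.94 and -0.0355 in the left (CHF minus CON, HYP minus CON, CHF minus HYP), and at -2.94 and -2.52 in the CHF and HYP interactions. Ankrd1 was reversed at -0.488 (CHF minus HYP, right), 2.03 and -0.477 (HYP minus CON and CHF minus HYP, left), 0.182 (right minus left), and -1.16 and -1.15 (interactions). Nppb right minus left weakened to -0.984. Array weights reversed Nppa to -0.120 (CHF minus CON), -1.03 (mean) and -0.425 (CHF interaction), and the array component as a covariate reversed its mean to -0.0461. Nppa right minus left passed with array weights (-4.42) and with the component (-3.94), and Ankrd1 CHF minus CON passed with the component (1.56, limma adjusted p = 0.0481); the cause was not tested. Correlations reversed for Nppa and Nppb (-0.0182 within groups, -0.0569 turned, -0.235 without 2 arrays), Nppa and Ankrd1 (-0.0286 turned) and Nppb and Ankrd1 (-0.243 within groups, -0.710 turned). Leaving out 1 array gave, in the right ventricle, Ankrd1 CHF minus CON 1.34 to 1.83, Nppa HYP minus CON -1.40 to 0.465, Nppb HYP minus CON -0.444 to 0.175, Nppa CHF minus CON 0.109 to 4.41, Nppa CHF minus HYP 0.683 to 4.98, Nppa mean -0.233 to 1.92 and Nppb mean -0.0412 to 0.578. In the left it gave Nppa CHF minus CON -0.740 to 0.043, Ankrd1 CHF minus CON -0.263 to 0.837 and Ankrd1 HYP minus CON -1.34 to 0.122, and right minus left -3.70 to -2.27 for Nppa. Nppb right minus left stayed between -1.69 and -1.35 and past the threshold without any 1 array; CHF left ventricle 15 could not be left out. Features called went from 29 to 9 turned, 18 without CHF 10 and 14 and 49 with the component (CHF minus CON), from 9 to 1 turned and 0 with only the groups compared (HYP minus CON), from 0 to 1 turned and 1 with array weights (CHF minus HYP), and from 20 to 8 turned and 31 with the component (mean). Right minus left, 457 features became 0 turned, 863 without CHF 10 and 14, 1079 with array weights, 961 with the component and 924 with the block. In the left ventricle HYP minus CON went from 0 to 96 turned, and the interactions went from 0 to 9 (CHF) and 33 (HYP) turned, to 3 (CHF) with array weights, and to 4 (HYP) with the component and with each probe by itself. Leaving out 1 array took them to as few as 16, 3 and 11 for CHF minus CON, HYP minus CON and the mean in the right ventricle and to as few as 140 right minus left (without CHF left ventricle 09), and to as many as 1 for CHF minus HYP in the right ventricle, 4 and 5 for HYP minus CON and CHF minus HYP in the left, and 6 and 8 for the CHF and HYP interactions.

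Numbers shared between ventricles were also used as a block. Same-numbered deviations correlated from -0.216 to 0.310, and the labels do not say that they share an animal, so they were not taken as pairs. With the replicate block, Ankrd1 right minus left was -0.836 and passed (limma adjusted p = 0.0433); the Nppb fit could not be made. The alternatives for Nppb between ventricles and for Capn3, Acta1 and Acta2 were chosen after seeing the data.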
